A study of Drosophila melanogaster with 2 samples.

Results

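The contact domains of the right arm of chromosome 3 (3R) of Drosophila melanogaster are described here as they were mapped by Hi-C in Kc167 cells, a line derived from embryos. All domains listed on 3R were taken, 507 of the 2126 in the whole list (23.8%), together with the 24 loops listed on 3R, of 120 in all. The study holds 2 samples of 1 group, untreated Kc167 cells fixed with paraformaldehyde, whose chromatin was cut with DpnII and ligated on beads. Both samples had been combined by the authors before domains and loops were listed on the dm3 (BDGP5) build, so no value has a spread between samples, the depth behind each domain is unknown, and no difference reported here was tested. Comparisons within 3R and between arms are descriptions of 1 pooled map of 1 cell line.

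Hi-C counts how often pairs of genomic positions are ligated to each other after cross-linking. A contact domain is a stretch whose positions contact each other more than they contact the sequence on either side, and a loop is a pair of separate positions, the anchors, with more contact than their surroundings. In Drosophila, domains are known to follow the chromatin state of the genes they hold, with long domains often of silent chromatin and short ones often of active genes, and many loops in these cells are known to join sites bound by Polycomb proteins, which keep developmental genes silent. The arm 3R carries both Hox gene complexes, the Antennapedia complex (among its genes lab, pb, Dfd, Scr and Antp) and the bithorax complex (Ubx, abd-A and Abd-B), as the RefSeq annotation of Release 6 lists them. That annotation is of another build than the lists, so no gene was placed on a domain.

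Positions run from the centromere end, at low values, to the telomere. The domains on 3R reached from 46501 to 27812000 and did not overlap. They covered 23.3 Mb, or 83.9% of the 27.8 Mb from position 0 to the last listed position. On 2L, 3L and X, the arms set beside 3R here, the covered share was 78.0, 79.7 and 79.0%. At 18.2 domains per Mb, 3R was also the most densely divided of these 4 arms (15.8 on 2L, 16.7 on 3L and 17.1 on X). These 4 arms do not hold all of the 2126 listed domains. The rest of the list was not compared, so no rank of 3R among all arms is given.

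The typical 3R domain was short. The median length was 21.5 kb, with a 95% binomial interval from the order statistics of 19 to 23.5 kb (n = 507 domains), and the quartiles were 12 and 44 kb. This interval treats domains as independent and holds no error of the map. The medians of 3L (21 kb), X (22.5 kb) and 2L (25 kb) had intervals that overlapped it, from 19 to 23, 19.5 to 26 and 21 to 27 kb. The curves of length percentiles ran close together. The quartiles of 3R lay below those of 2L (13.5 and 50 kb), while the longest domain of 3R, at 740 kb, exceeded the 625 kb of 2L.

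**Figure D1:**
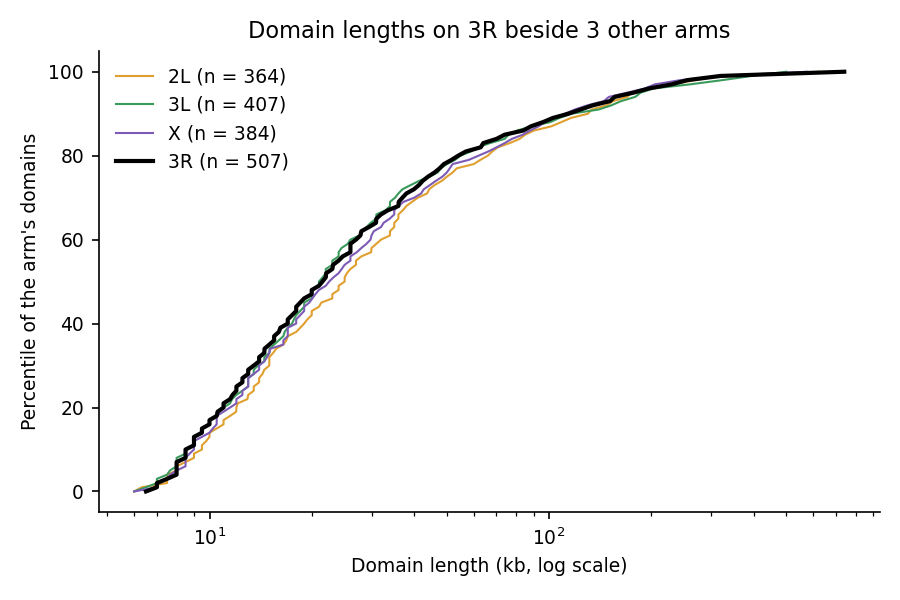
Percentile of each arm's contact domains (y) against domain length in kb on a log axis (x), 1 line per arm. The line of 3R crosses the 50th percentile at 21.5 kb, beside 21 kb on 3L, 22.5 kb on X and 25 kb on 2L.

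A few long domains made up most of the covered sequence. The 89 domains of up to 10 kb (17.6% of the 507) held 3.23% of the domain length. The classes over 10 to 20 kb and over 20 to 50 kb had 155 domains each and held 9.71 and 21.2% of the length. There were 49 domains over 50 to 100 kb, with 14.8%, and 59 domains over 100 kb, 11.6% of all, with 51.1% of the length. The share of length in domains over 100 kb was 51.4% on 2L, 53.6% on 3L and 47.7% on X.

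The 10 longest domains came to 4.12 Mb, 17.6% of the domain length. From the centromere end they lay at 1625001 to 2165000 (540 kb), 2980001 to 3720000 (740 kb), 6720001 to 7020000 (300 kb), 7825001 to 8185000 (360 kb) and 11190001 to 11790000 (600 kb). Toward the telomere followed 12480001 to 12800000 (320 kb), 17870001 to 18175000 (305 kb), 18582001 to 18872000 (290 kb), 19184001 to 19502000 (318 kb) and 23795001 to 24140000 (345 kb). Of the 10, 2 held a loop anchor, the 300 kb and the 360 kb domain, with 1 whole loop each. Among all 507 domains 3.55% held an anchor, and among the 59 over 100 kb 15.3% did. The immediate neighbours of the 10 were much shorter, between 9 and 37 kb long.

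The shortest domains on 3R were 6.5 kb, and 3 had that length. They lay at 5456501 to 5463000, 7439001 to 7445500 and 20696501 to 20703000, each with a gap of 1 kb or less on at least 1 side. The next by position, at 7 kb, were 4764501 to 4771500 and 7062001 to 7069000.

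Long and short domains were mixed along the whole arm, without a trend in length from end to end (Spearman rho of position with length 0.046, with score 0.022, n = 507 domains of 1 map). Cut into 5 Mb segments from the centromere end, with 2.81 Mb left for the last, the median length was 19, 18.5, 19.8, 23, 24 and 22 kb. The segments held 87, 92, 86, 95, 89 and 58 domains. The lower quartiles lay between 10.5 and 14.5 kb and the upper quartiles between 39 and 53.8 kb in every segment, so that the lengths overlapped widely. Domains over 100 kb were present in each segment, with 8, 11, 13, 9, 11 and 7. The share covered by domains was 84.6, 84.9, 87.4, 83.8, 82.1 and 78.6%, highest from 10 to 15 Mb and lowest in the segment at the telomere.

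**Figure D2:**
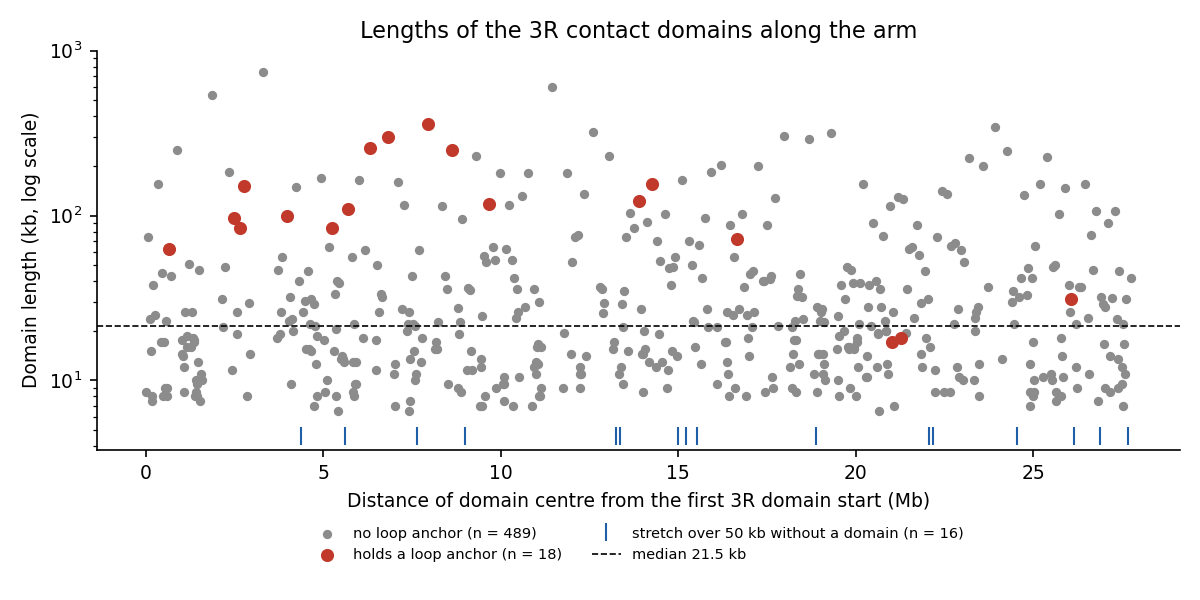
Length of each 3R domain in kb on a log axis (y) against the distance of its centre from the start of the first 3R domain in Mb (x). Red points are the 18 domains that hold a loop anchor, grey points the other 489, blue ticks the 16 stretches over 50 kb without a domain, and the dashed line the median of 21.5 kb. Short and long domains are found along the whole arm, and most red points lie above the median and toward the left.

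At the scale of 1 Mb the arm was uneven. Over the 27 full windows the number of domains ranged from 6 to 28, with a median of 18. The window from 3000001 to 4000000 had 6 and that from 20000001 to 21000000 had 28. In the first of these, domains over 100 kb took up 72% of the window, all of it through the 740 kb domain, and in the second 20.2%. Coverage varied less than the number of domains, from 67.6% at 22000001 to 23000000 to 94.9% at 11000001 to 12000000, with a median of 85%. In the window of highest coverage, domains over 100 kb made up 77 of the 94.9%. The window at 22000001 to 23000000 had the lowest median score too, 1.10, against a median over windows of 1.33.

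The window with most domains was not the one with the shortest median. The lowest median length was 13.5 kb at 5000001 to 6000000, with 26 domains, and the highest was 42 kb at 15000001 to 16000000, with 13 domains. The window of 28 domains had a median of 19.8 kb.

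**Figure D3:**
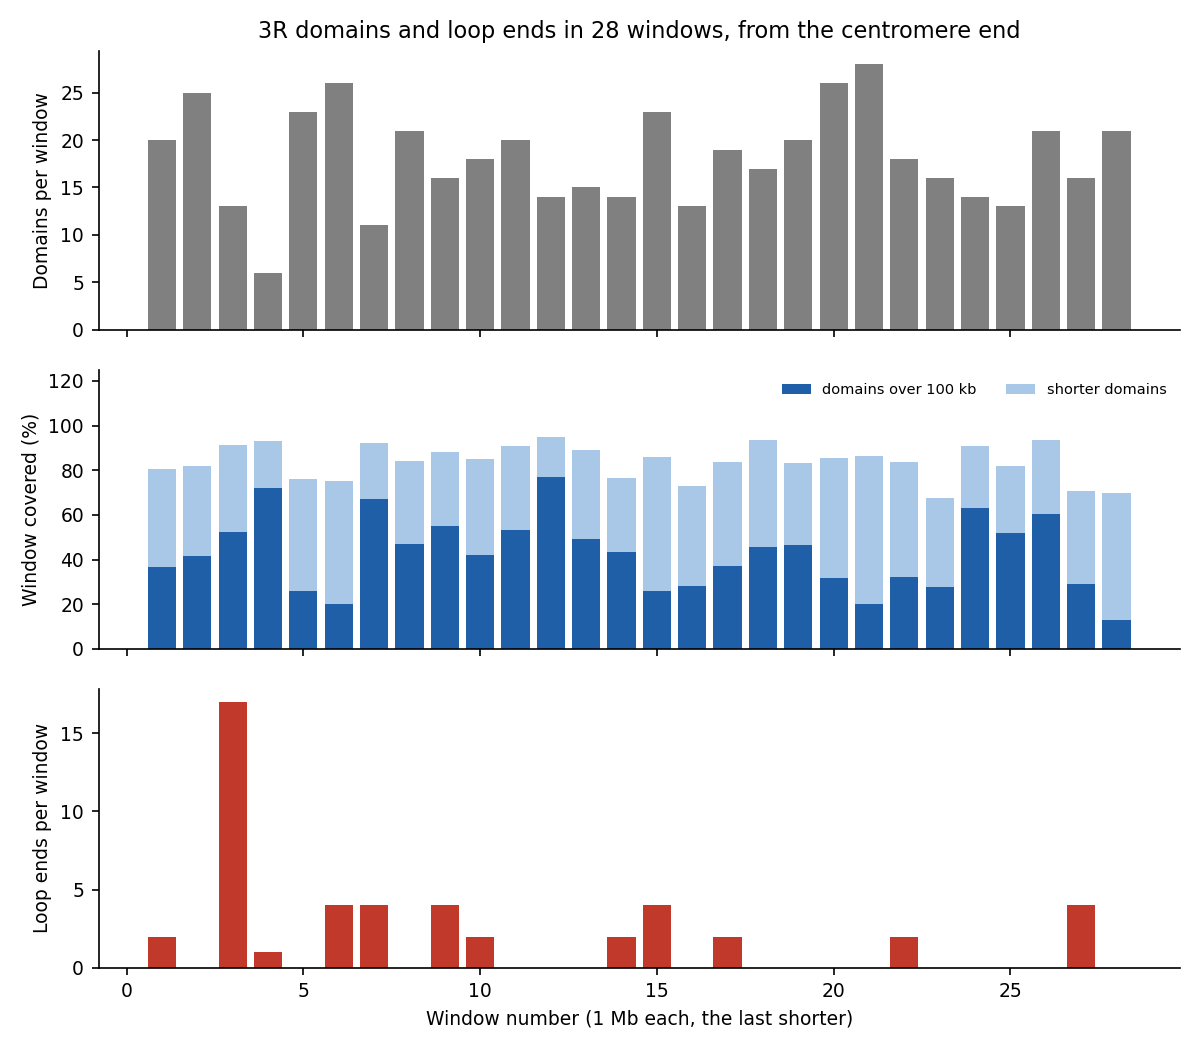
Number of 3R domains by domain centre (top), percent of the window covered by domains, split into those over 100 kb and shorter ones (middle), and number of loop ends (bottom) in 28 windows of 1 Mb counted from the centromere end, the last of them shorter. The number of domains runs from 6 in window 4 to 28 in window 21, and 17 loop ends stand in window 3.

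Neighbouring domains on 3R were mostly separated by a few kb. The median of the 506 gaps was 3.5 kb, with quartiles at 1.5 and 7.5 kb, and none was under 0.5 kb. Gaps of exactly 0.5, 1, 1.5 and 2 kb numbered 44, 63, 43 and 43. Together these were 193 gaps, or 38.1% (exact Clopper-Pearson interval 33.9 to 42.5%, counting error only). The corresponding share was 28.7% on 2L, 40.6% on 3L and 33.9% on X.

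Gaps this narrow made up a smaller share at the centromere end, a difference that was not tested. In the 5 Mb segments, gaps of 2 kb or less made up 24.4% (21 of 86), 36.6% (34 of 93), 42.4% (36 of 85), 40.6% (39 of 96), 41.6% (37 of 89) and 45.6% (26 of 57) of all gaps. The first segment thus stood below the other 5, which lay between 36.6 and 45.6%. The highest number in a window was 16, at 19000001 to 20000000, and the lowest was 1, at 3000001 to 4000000, where only 6 domains were centred.

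Where every gap was 2 kb or less, domains formed chains. Of the 507 domains, 199 had no such neighbour, and the others formed 66 pairs, 32 chains of 3, 9 of 4, 5 of 5, 2 of 6 and 1 of 7. The chain of 7 ran from 20146001 to 20450000, with domains of 10.5 to 156 kb and a median score of 1.49. The chains of 6 lay at 20643001 to 20770000, with domains of 6.5 to 36 kb, and at 24984001 to 25141000, with domains of 8 to 65 kb. The median score was 0.962 in the first of these and 1.32 in the second.

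Stretches over 50 kb without a domain numbered 16 on 3R and came to 1.30 Mb. This was 29.4% of the 4.42 Mb between domains, against 44.1% on 2L, 45.4% on 3L and 44.2% on X. The longest on 3R was 117 kb, where 2L, 3L and X had gaps of up to 253, 529 and 369 kb. From the centromere end the stretches began at 4384001 (84 kb), 5631501 (62.5 kb), 7659501 (52.5 kb) and 9010001 (76 kb), so that none lay closer to the centromere than 4384001. In the middle of the arm they began at 13245001 (116 kb), 13372001 (58.5 kb), 15005501 (52.5 kb), 15222001 (98 kb), 15514001 (90 kb) and 18887501 (57 kb). Toward the telomere they began at 22085001 (58 kb), 22159001 (107 kb), 24520001 (117 kb), 26134001 (102 kb), 26887001 (69 kb) and 27669001 (101 kb).

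In 3 places a lone domain stood between a pair of such stretches. These domains were 11 kb long at 13361001 to 13372000, 164 kb at 15058001 to 15222000 and 16 kb at 22143001 to 22159000. No loop anchor midpoint lay in any of the 16 stretches. As they made up only 1.30 Mb of the 27.8 Mb arm, which had 24 loops, this absence says little. The domains beside the stretches had a median length of 19.5 kb, close to that of the arm.

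Runs of 3 or more neighbours that were all short or all long were few. Short here means 12.5 kb or less and long 44 kb or more, the quartiles of all 2126 domains. Of the 139 short domains on 3R, 28 stood in 8 runs, which is 5.52% of the 507 domains (exact interval 3.70 to 7.88%). The longest run of short domains had 5, of 8, 10, 8.5, 9.5 and 8 kb, from 1417501 to 1494000. Runs of 4 lay at 10113501 to 10152500 and at 12258501 to 12307000. Of the 8 runs, 4 bordered a domain over 100 kb, among them the run at 7024501 to 7069000, which separated domains of 300 and 160 kb. Each run has 2 bordering domains, none of which can be short by the rule. On the arm 59 of the 507 domains (11.6%) were over 100 kb, and the count of 4 was not tested against this share.

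Of the 128 long domains, 19 stood in 6 runs, or 3.75% of all (exact interval 2.27 to 5.79%). The longest had 4 domains, of 52, 117, 64 and 54 kb, from 9607001 to 9914000. The next by position had 3 domains each, at 10153001 to 10393000 and 12032501 to 12256000. The domains that bordered the 6 runs were between 7 and 27 kb long, and 7 of these 12 were short. By the rule for runs none of the 12 could be long. Of the domains on the arm that were not long, 139 were short and 240 were of middle length. On 2 occasions a run of short domains met a run of long ones directly: the run of 4 short domains that ended at 10152500 came before the long run from 10153001, and the long run that ended at 12256000 came before the 4 short domains from 12258501.

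No domain over 100 kb had another as its immediate neighbour on 3R. Of the 118 neighbours of the 59 such domains, 0 were over 100 kb, while such domains made up 11.6% of the 507. On 2L, 3L and X, 6 of 95, 8 of 98 and 6 of 89 neighbours were over 100 kb (6.32, 8.16 and 6.74%). The count of 0 pairs depended on the bound and was 3 pairs among 72 domains when domains over 80 kb were taken. A median of 6.5 domains lay between consecutive domains over 100 kb, over a median distance of 226 kb. The most was 24 domains, between 1040001 and 1625000, and the longest distance was 950 kb, from 21448001 to 22398000.

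Across all neighbours, lengths were nearly unrelated (Spearman rho -0.052, n = 506 pairs, each domain being in 2 pairs). Long domains had a long neighbour in 20.3% of cases, against 25.2% long domains on the arm, and short domains had a short neighbour in 29.6%, against 27.4%. The gaps beside short domains were narrower than those beside long ones, with medians of 2 and 4 kb. Of the gaps beside short domains 50.9% were 2 kb or less, and of those beside long domains 28.9%. Ends of longer domains lay on a coarser grid, with a median length of 12.5 kb on the 0.5 kb grid and 162.5 kb on the 5 kb grid. The gap values were not adjusted for this.

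Each domain carries scores in the list, which are the authors' own values with no stated scale. Columns with these names are written by Arrowhead, the domain caller of the Juicer package, in which the score rates how well a domain's corner stands out and uVarScore and lVarScore are variances of the signal in the upper and lower triangle that are set against each other. The sources used here do not name the caller of this list. On 3R the score, called the corner score here, ranged from 0.261 to 1.91 with a median of 1.31 and quartiles at 1.09 and 1.51. The medians on 2L, 3L and X were 1.28, 1.31 and 1.32. The uVarScore had a median of 0.0432 and the lVarScore a median of 0.0429 on 3R, close to those of 3L (0.0410 and 0.0415) and lower than those of X (0.0519 and 0.0519).

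Corner scores were higher in longer domains. The median score by length class, from up to 10 kb to over 100 kb, was 1.08, 1.26, 1.40, 1.47 and 1.54. The rank correlation of score with length was 0.52 on 3R (n = 507 domains of 1 map), beside 0.39 on 2L, 0.44 on 3L and 0.34 on X. Neither uVarScore (rho 0.20) nor lVarScore (rho 0.13) followed length as closely. These 2 values were correlated with each other at rho 0.36, and neighbouring domains had weakly related scores (rho 0.12, n = 506 pairs).

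Along the arm the median score was 1.25, 1.31, 1.39, 1.35, 1.25 and 1.29 in the 5 Mb segments from the centromere end. The values from 10 to 20 Mb were thus the highest and those at both ends were lower. The median uVarScore per segment lay between 0.0389 and 0.0465 and the median lVarScore between 0.0398 and 0.0473.

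The highest scores were held by domains of very different length. They were 1.91 at 6720001 to 7020000 (300 kb), 1.91 at 10153001 to 10216000 (63 kb), 1.90 at 308001 to 464000 (156 kb), 1.89 at 17176001 to 17202000 (26 kb) and 1.88 at 13620501 to 13635500 (15 kb). The last is 15 kb long in a class whose median score was 1.26. It lay 0.5 kb after a domain of 74 kb and 2.5 kb before one of 104 kb.

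At the low end, 5 domains stood apart from the rest in score, and their variance scores were high too. Their scores were 0.261 at 59001 to 133000, 0.406 at 21518001 to 21581000, 0.416 at 22288001 to 22362000, 0.436 at 22814001 to 22882000 and 0.453 at 3859001 to 3915000. The next lowest score on the arm was 0.684. All 5 were 56 to 74 kb long, above the upper quartile of the arm, where scores were otherwise high. Their uVarScore lay between 0.200 and 0.346 and their lVarScore between 0.180 and 0.378, several times the medians of the arm, though other domains reached values in or above these ranges. Over all 507 domains the relation was weak and of the other sign. The rank correlation of score was 0.26 with uVarScore and 0.21 with lVarScore. The domain 20643001 to 20655000 (12 kb, score 0.691) had a low uVarScore, 0.0163, and a low lVarScore, 0.0160.

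The sixth lowest, at 4689001 to 4720000 (31 kb, score 0.684), had the highest lVarScore of the arm, 0.396, and a uVarScore of 0.236. The 5 highest uVarScores and the 5 lowest scores had 3 domains in common. The others among the highest uVarScores were that 31 kb domain and 6641501 to 6675000 (33.5 kb), with a uVarScore of 0.231, an lVarScore of 0.0847 and a score of 1.34. Among the highest lVarScores was also 1220001 to 1270500 (50.5 kb), with 0.228. Scores under 0.7 were found for 8 of 507 domains on 3R, 5 of 364 on 2L, 2 of 407 on 3L and 5 of 384 on X.

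**Figure D4:**
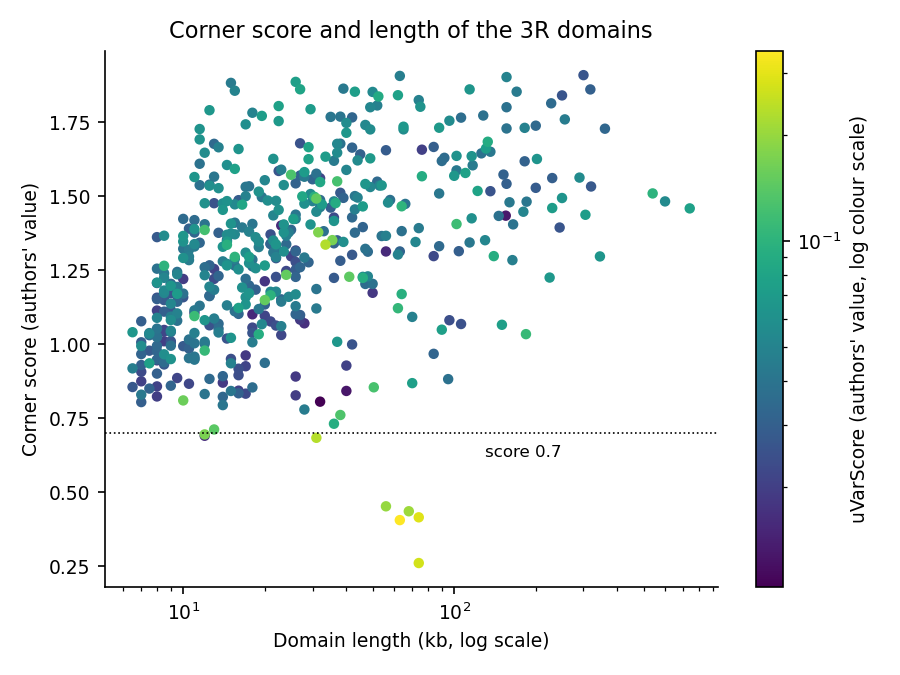
Corner score (y) against domain length in kb on a log axis (x) for the 507 domains of 3R, coloured by uVarScore on a log scale, with a dotted line at a score of 0.7. The scores are higher at greater length, and 5 domains of 56 to 74 kb with high uVarScores lie apart at scores of 0.453 and below.

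The grid on which domain ends lay was coarser for longer domains. All ends lay on a 0.5 kb grid. For 192 domains (37.9%) this was the coarsest grid of 0.5, 1, 2 and 5 kb that held both ends, and these had a median length of 12.5 kb and a maximum of 52.5 kb. The 153 domains on the 1 kb grid had a median of 24 kb, the 126 on the 2 kb grid 47 kb and the 36 on the 5 kb grid 162.5 kb. Of the 10 longest domains, 8 had both ends on the 5 kb grid.

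The loops on 3R, numbered 1 to 24 here from the centromere end, were concentrated in the part near the centromere. Both anchors of 17 loops lay in the first 10 Mb of the 27.8 Mb arm, and 7 loops lay beyond. In the 5 Mb segments 10, 7, 3, 1, 1 and 2 loops began. Loops that share anchors are counted separately here. In the first segment, loops 4, 5, 6, 8, 9 and 10 form 1 linked set, and its lead over the next segment depends on counting them separately. At 8.63 loops per 10 Mb, 3R was below 2L (10.4), 3L (10.7) and X (12.9). The loop spans had a median of 41.5 kb and quartiles at 25.2 and 114 kb, beside medians of 65 kb on 2L, 55.5 kb on 3L and 59 kb on X.

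Long parts of the arm had no anchor. The longest ran for 4.80 Mb between the anchor midpoints 21303501 and 26106001, and held 78 domains, 12 of them over 100 kb. The next ran for 4.35 Mb from 16739001 to 21090001, with 97 domains, 8 of them over 100 kb. Then came 4.16 Mb from 9727501 to 13889001, with 65 domains, 10 of them over 100 kb. On the whole arm 59 of 507 domains (11.6%) were over 100 kb. The domains of 600, 320, 345, 305, 318 and 290 kb named above all lay in these 3 parts. The parts take up much of the 27.8 Mb arm and hold many of its 507 domains, and no excess of long domains was tested.

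The loops used 18 of the 507 domains (3.55%, exact interval 2.12 to 5.55%), counted by anchor midpoints. These domains were long, with a median of 105 kb and quartiles at 75 and 155 kb, against 21 kb and quartiles at 12 and 41 kb for the 489 others. Anchors were held by 9 of the 59 domains over 100 kb (15.3%), by 9 of the 359 domains over 10 to 100 kb (2.51%) and by none of the 89 domains up to 10 kb. A longer domain offers more sequence in which an anchor can lie, and this was not adjusted for. The scores of domains with an anchor were also higher, with a median of 1.58 against 1.30, and 15 of the 18 were in the upper 50% of the arm by score. Among domains over 100 kb alone, the medians were 1.60 with an anchor (n = 9) and 1.51 without (n = 50).

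Most of the listed 3R loops lay inside a domain. Both anchor midpoints lay in the same domain for 15 of 24 loops, or 62.5% (exact interval 40.6 to 81.2%), beside 66.7% on 2L, 69.2% on 3L and 65.5% on X. These 15 loops lay in 13 domains of 31 to 360 kb. They spanned a median of 25.4% of their domain, from 6% to 88.7%, and in 11 of the 15 both anchors were over 10 kb from the ends of the domain. Their median span was 32.25 kb, and the median length of their domains, over loops, was 122 kb. Domains covered 83.9% of the arm. The share expected from placement was not computed, so 15 of 24 is no sign of a preference.

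Going along the arm, loop 1 (660001 to 663001 with 676001 to 679001) spanned 16 kb of the 63 kb domain 649001 to 712000. Loop 11 (5243001 to 5246001 with 5261001 to 5264001) spanned 18 kb and loop 12 (5699001 to 5702001 with 5752001 to 5755001) spanned 53 kb, and both began 6.50 kb after the start of their domains, of 84 and 110 kb. Loops 13 to 16 lay in 4 of the longer domains of the arm. Loop 13 (6358001 to 6364001 with 6440001 to 6444001) spanned 81 kb of the 256 kb domain 6242001 to 6498000. Loop 14 (6979001 to 6983001 with 6998001 to 7000001) spanned 18 kb near the telomere-side end of the 300 kb domain with the highest score of the arm.

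Loop 15 (8068001 to 8072001 with 8104001 to 8108001) spanned 36 kb of the 360 kb domain, and loop 16 (8606001 to 8612001 with 8738001 to 8744001) spanned 132 kb of the 250 kb domain 8550001 to 8800000. The anchors of loop 16 were placed evenly, each 59.0 kb from the nearer end of that domain. Loop 17 (9702001 to 9704001 with 9727001 to 9728001) spanned 24.5 kb of the 117 kb domain 9666001 to 9783000, and loop 18 (13888501 to 13889501 with 13947001 to 13948501) spanned 58.8 kb of the 122 kb domain 13866001 to 13988000. Both of these domains belong to runs of long domains.

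Loops 19 and 20 began at overlapping anchors, 14272501 to 14276501 and 14273001 to 14276501, in the 156 kb domain 14240001 to 14396000, and reached 25.5 and 32.2 kb to the anchors 14298001 to 14302001 and 14306001 to 14308001. Loops 23 and 24 shared the anchor 26103001 to 26109001 at the start of the 31 kb domain 26103001 to 26134000. Loop 23 reached 15.5 kb to 26120001 to 26123001, in the middle of the domain, and loop 24 reached 27.5 kb to 26132001 to 26135001, at its end. That domain is followed by a stretch of 102 kb without a domain.

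**Figure D5:**
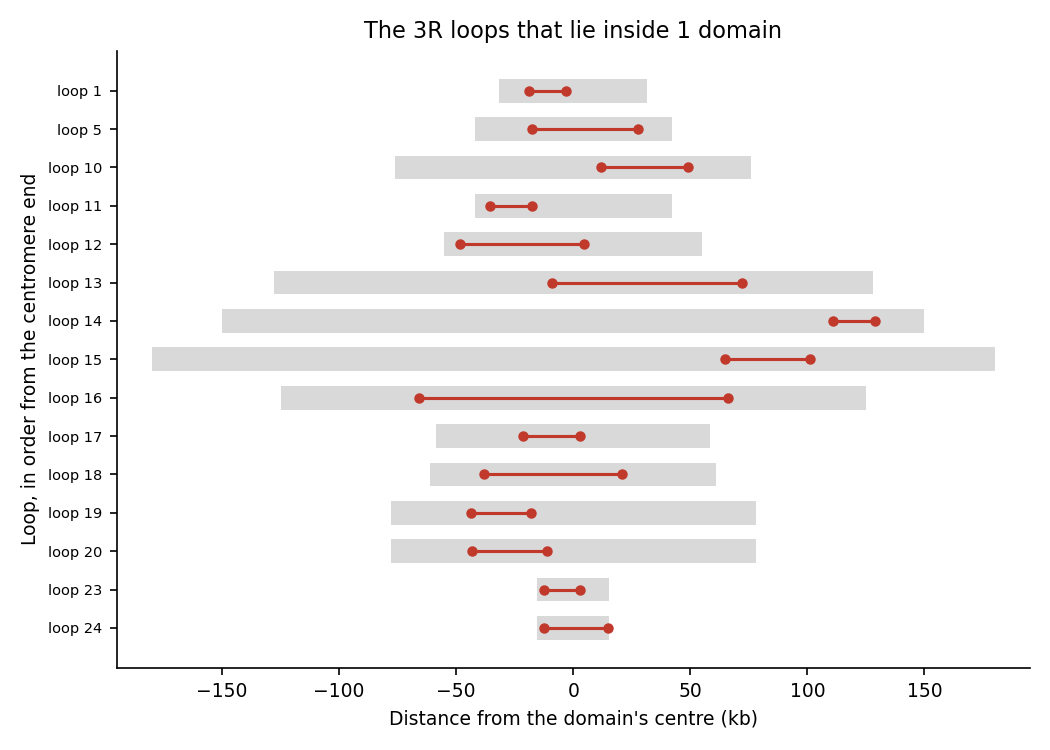
The 15 loops of 3R that lie inside 1 domain, 1 row each, numbered as in the text. Grey bars are the domains, drawn to scale around their centres, with the distance from the centre in kb on the x axis, and red points are the anchor midpoints. Only the anchors of loop 24 lie near both ends of the domain, and loops 14 and 15 take up 6 and 10% of their domains.

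Loop 24 was the 1 loop of 24 at a domain corner (4.17%, exact interval 0.105 to 21.1%), with its anchor midpoints no more than 10 kb from the 2 ends of the same domain. On 2L, 3L and X, 4 of 24, 5 of 26 and 4 of 29 loops were at a corner. The interval of 3R overlapped those of the other arms, the lower bounds of which were 4.74, 6.55 and 3.89%, and the difference was not tested.

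A densely looped stretch lay between 2.4 and 2.9 Mb, where 8 of the 24 loops (33.3%) had both anchors. From 2488001 on it held the domains 2488001 to 2584000 (96 kb, score 1.08), 2586001 to 2605000 (19 kb, 1.03), 2606001 to 2632000 (26 kb, 1.44), 2650001 to 2734000 (84 kb, 1.30), 2738001 to 2890000 (152 kb, 1.57) and 2892001 to 2900000 (8 kb, 1.36). Of these, the 84 kb domain held 7 loop ends, the 152 kb domain 6 and the 96 kb domain 1. The 84 and 152 kb domains were separated by a gap of 4 kb. Loops 4, 5, 6, 8, 9 and 10 joined 4 anchors in all pairs, with overlapping anchors taken as 1, and the 4 of these loops that crossed the gap spanned 108 to 190 kb. Within the domains, loop 5 spanned 45 kb and loop 10 spanned 37 kb.

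Beyond those linked anchors, 3 loops of 3R ran from inside a domain to its telomere-side end. Loop 2 joined 2534001 to 2536001 with 2584001 to 2586001, the 2 kb that separate the 96 kb domain from the next. Loop 7 joined 2694001 to 2698001 with 2732001 to 2736001, which straddles the end of the 84 kb domain. Loop 21 joined 16716001 to 16719001 with 16738001 to 16740001, directly after the end of the 72 kb domain 16666001 to 16738000. They spanned 50, 38 and 21.5 kb, and each has its outer anchor midpoint within about 1 kb of the domain end (0.999, 0.001 and 1.00 kb).

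The other loops crossed several domains. Loop 3 spanned 1.32 Mb from 2644001 to 2650001, just before the 84 kb domain, to 3960001 to 3970001, in the 100 kb domain 3956001 to 4056000. There were 23 domain starts and ends between its anchors, and the 740 kb domain lay whole inside it. Loop 22 spanned 213.5 kb and joined the end of a 17 kb domain (21073501 to 21090500, score 1.74) with an 18 kb domain (21299001 to 21317000, score 1.78), over 8 domain starts and ends. These were the shortest domains with an anchor, and their scores were above the upper quartile of the arm, 1.51.

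Anchors that overlapped or touched were merged, which left 38 distinct anchors on 3R, 34 of them in a domain and 4 between domains. Domains covered 83.9% of the arm, so most anchors in a domain is no sign of a preference. The nearest domain start or end was within 2 kb for 5 anchors and within 5 kb for 8. It was over 5 to 20 kb away for 6 anchors and over 20 kb away for 24, with a median of 25.8 kb and a maximum of 119 kb.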

How the data were processed

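Hi-C libraries were made from 2 samples of Kc167 cells. The submitters' processing notes name BWA, Juicer and the dm3 (BDGP5) build, with no version, and the sources used here do not name the callers or their settings. The deposited files are 1 list of domains, with positions and 5 score values per domain made by the authors, and 1 list of loops, with positions and no score. Both are of the samples combined, per the file names. No other column of per-sample values was found.

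All 507 domains with 3R as chromosome were used. Length is end minus start, and printed starts are the listed start plus 1. Loop anchors are printed as listed and represented by midpoints, and overlapping or touching anchors were merged where distinct or shared anchors are counted. Gaps, runs, windows, chains, Spearman correlations and exact binomial intervals (95%) were computed with Python 3.11.15, numpy 2.4.6, pandas 2.3.3 and scipy 1.17.1, and figures with matplotlib 3.10.9. The code met 7 of 7 checks on a simulated arm of 100 domains and 50 loops. No test was run, as the lists hold no replicate values. The members, rules and named regions (the 10 longest and 5 shortest domains, the 5 extremes of each score, stretches over 50 kb, the longest runs, extreme windows and all loops) were chosen with earlier results of these data known. The counts of neighbours over 100 kb, the chains, the grid classes, and the gaps beside short and long domains were added after values were seen. So were the sixth lowest score and the domain from 20643001. No sequence is printed, because no genome of the dm3 build was used here.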

Additional observations from a re-analysis of the deposited data

How the results depend on the processing

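No paired analysis was possible because both samples were pooled, and neither could be left out. Of the 41 alternatives set out, 17 left the value within its 95% binomial interval, or equal at 2 decimals for coverage and correlations, where any other change was counted as a move. With the upper 50% of 3R domains by corner score, the median length was 34.2 kb, coverage 61.7%, gaps of 2 kb or less 15%, domains in runs of short domains 0%, in runs of long domains 9.45%, the correlation of score with length 0.32, that of neighbouring lengths -0.24, corner loops 0% and domains with an anchor 5.91%. Fewer domains are left in it by construction, which widens the gaps. Without domains on the 5 kb grid, coverage was 60.1% and these correlations 0.53 and 0.0093, the latter no longer negative. Without 2 Mb at each end they were 85.1%, 0.53 and -0.087. Coverage from the first start to the last end was 84.1%. Gaps of 1 kb or less were 21.1% and of 5 kb or less 64.4%. Runs of domains of 10 kb or less held 2.17% and of domains over 100 kb 0%, and runs of 4 or more held 2.56% (short) and 0.789% (long). Neighbours with gaps of 2 kb or less had a length correlation of -0.14. With linked loops counted as 1, by the one nearest the centromere, corner loops were 0%, the corner loop sharing its anchor with loop 23, while a tolerance of 20 kb gave 2 of 24 (8.33%). The share of loops inside a domain stayed between 50 and 64.7% in all 4 alternatives. Pairs of neighbours both over 100 kb (0), with bounds chosen after seeing the data, numbered 0 over 90 kb, 3 over 80 kb, 12 over 60 kb and 20 over 50 kb. Depth could not be assessed.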

Other observations

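The list holds 2 further scores per domain, upSign and loSign, which the comparisons above did not use. On 3R their medians were 0.786 and 0.770. Both followed the corner score closely (Spearman rho 0.81 and 0.82, n = 507 domains of 1 map) and followed length (rho 0.63 and 0.62). How the score was computed is not stated. If upSign and loSign entered it, their correlations with the score hold in part by construction. For domains with a loop anchor the medians were 0.930 and 0.913 (n = 18), against 0.773 and 0.767 for the others (n = 489). The difference was smaller among domains over 100 kb alone. There the medians were 0.960 and 0.965 with an anchor (n = 9), against 0.923 and 0.931 without (n = 50).

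The upper and lower variance scores were balanced over the arm, with a median ratio of lVarScore to uVarScore of 0.988, but not in every domain. In 43 domains the lVarScore was more than 2 times the uVarScore, and in 49 the reverse held. The 63 kb domain of loop 1 (649001 to 712000) had an lVarScore of 0.151 and a uVarScore of 0.0316, and the 31 kb domain of loops 23 and 24 (26103001 to 26134000) had 0.158 and 0.0401. Both were picked after their values were seen and do not stand for the domains with an anchor. Over those 18 domains the median was 0.0386 for lVarScore and 0.0365 for uVarScore. Some leaned the other way, such as the domain of loop 12 (5694001 to 5804000), with 0.0331 and 0.0772.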
